A study of Mus musculus with 6 samples.

Results

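The genes described here are the enzymes and regulators of the glutathione, thioredoxin and antioxidant systems, compared between label-retaining chondrocytes (LRCs) and non-LRCs of the mouse growth plate. They were chosen by gene symbol, as every row for a glutathione peroxidase (*Gpx*), peroxiredoxin (*Prdx*), superoxide dismutase (*Sod*), glutathione transferase (*Gst*, *Mgst*), thioredoxin (*Txn*) or thioredoxin reductase (*Txnrd*), together with *Txnip*, *Cat*, *Nqo1*, *Hmox1*, *Gclc*, *Gclm*, *Gsr*, *Gss*, *Nfe2l2* and *Keap1*. The rule found 56 of the 23159 genes in the count table, and 43 of them had enough reads to be tested. The other 13 had at most 12 counts in any library.

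RNA was sequenced in 6 libraries, an LRC and a non-LRC library from each of 3 separate experiments. All mice were homozygous for 4 constructs, *Col2a1-tTA* at *Peli2*, *TRE-H2B-GFP* at *Col1a1*, *Col2a1-creER* and *R26R-tdTomato*, and were analysed at P49 after doxycycline from P21 to P49 and tamoxifen at P46 and P47. Doxycycline stops new H2B-GFP synthesis, so that cells which divide dilute the label. LRCs were tdTomato+ cells with high H2B-GFP (about 10000 cells per library) and non-LRCs were tdTomato+ cells with mid-low H2B-GFP (about 50000 cells per library). The tTA and creER transgenes, on which H2B-GFP and tdTomato depend, are driven by *Col2a1* sequences. In mice without *Col2a1-tTA* the paper saw low H2B-GFP in osteoblasts and osteocytes on sections. By flow cytometry it saw virtually no GFP+ cells among tdTomato+ cells without that transgene. The sort took CD45-negative cells only, and each experiment pooled cells from several littermates, so that single animals cannot be told apart.

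Reactive oxygen species are removed in steps. Superoxide dismutases turn superoxide into hydrogen peroxide, and catalase, glutathione peroxidases and peroxiredoxins reduce the peroxide. Glutathione reductase and thioredoxin reductases then return electrons from NADPH to glutathione and thioredoxin. The transcription factor Nrf2 (*Nfe2l2*), held down by Keap1, activates many of these genes through a DNA motif called the antioxidant response element. Cartilage has no blood vessels, and growth plate chondrocytes secrete large amounts of collagen that is folded and disulphide-bonded in the endoplasmic reticulum.

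The libraries held 18943789 to 129559872 counts, and 3 counts were worth 0.0257 to 0.143 CPM (read counts scaled to library size with the trimmed mean of M-values, TMM). In the smallest library, the LRCs of experiment 2, 1731 of the 13728 genes tested had 0 counts, against 4 to 365 genes in the others. *Col2a1* took up to 17.4% of counts, and least in that same library. All 13 chondrocyte markers were detected, and they summed to 90875 to 260119 CPM per library. Osteoblast markers were present as well, at 131 to 299 CPM in LRCs and 133 to 428 CPM in non-LRCs. By fitted sign 5 of the 7 were lower in LRCs and 2 were higher. *Col1a1*, of the higher ones, was at 53.0 to 154 CPM in LRCs against 8.20 to 33.7 CPM in non-LRCs. Erythroid markers summed to 0.120 to 1.57 CPM, with 3 of 7 at 0 in every library, and endothelial markers summed to at most 0.681 CPM, with *Cdh5*, *Kdr* and *Emcn* at 0 throughout. *Ptprc*, which encodes CD45, had 10 counts in 1 LRC library and 0 in the other 5, but the leukocyte and macrophage list as a whole was present, at 26.6 to 51.1 CPM in LRCs against 17.9 to 33.3 CPM in non-LRCs. Most of that sum came from *Cd14*, at 15.2 to 27.3 CPM in LRCs against 9.37 to 19.2 CPM in non-LRCs, and *Cd68*, at 6.17 to 23.0 against 4.71 to 10.7 CPM. The part of these markers in the results was not tested.

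A gene was called when its adjusted p was below 0.05 and its fold change was at least 2 (a log2 fold change of 1 in size), in edgeR's quasi-likelihood test with the experiment as a block and Benjamini-Hochberg adjustment over all 13728 genes. Fold changes are given as LRC over non-LRC. By this rule *Sod3* was higher in LRCs, and *Txnip*, *Prdx4* and *Gpx7* were lower. Thus 1 of 43 genes was called higher, against 0.874% of all genes tested, and 3 were called lower, against 0.335%. At an unadjusted p below 0.05, 4 were higher (8.89% of all genes) and 11 lower (9.53%). The same direction in all 3 experiments was seen for 8 higher genes (20.4% of all genes) and 16 lower genes (26.1%), while 19 differed in sign between experiments. The 3 LRC libraries lay entirely above the 3 non-LRC libraries for 4 genes (8.41% of all genes) and entirely below for 6 (10.3%). DESeq2 with the same block called 2 of the 43 higher (3.07% of all genes) and 4 lower (2.72%), adding *Gstm1* and *Gstk1*.

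The median log2 fold change of the 43 genes was −0.16, beside −0.10 over all genes. By experiment this median was −0.38, 0.09 and −0.28, against −0.01, −0.16 and −0.01 for all genes. The summed level of the 56 genes was 3581, 5441 and 3786 CPM in LRCs of experiments 1, 2 and 3, and 3514, 5046 and 3930 CPM in non-LRCs. Both libraries of experiment 2 were thus the highest of their group, and the groups overlapped (4269 ± 1020 and 4163 ± 792 CPM, mean ± s.d., *n*=3 libraries). *Gpx3* alone made up 25.5% of the sum. In bulk RNA, fewer cells that express a gene and less RNA of it per cell cannot be told apart.

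**Figure D1:**
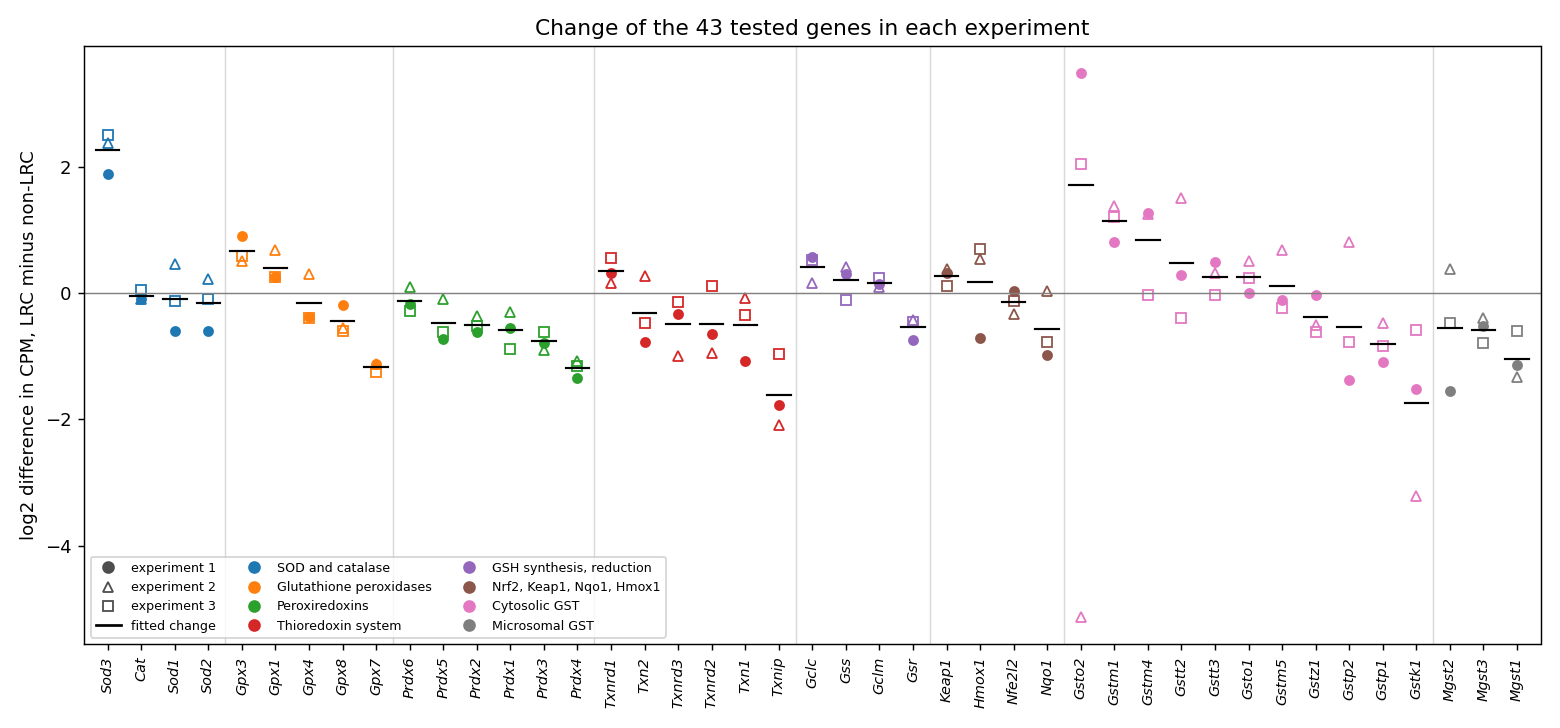
Difference in log2 CPM between LRC and non-LRC libraries (*y* axis) for each of the 43 tested genes (*x* axis), by role; circles, triangles and squares are experiments 1, 2 and 3, and black bars are the fitted log2 fold changes. All 3 points of *Sod3* lie at 1.89 or above, those of *Prdx4* and *Gpx7* lie between −1.34 and −1.08, and the points of all peroxiredoxins except 1 of *Prdx6* lie below 0.

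Of the superoxide dismutases and catalase, 1 was higher and 3 were lower by fitted sign (6038 and 7690 of all 13728 genes). Of these, 1 was called, as higher (0.874% of all genes). *Sod3* encodes the superoxide dismutase that is secreted and held on the extracellular matrix. It was at 119, 318 and 149.9 CPM in LRCs and at 32.1, 60.9 and 26.3 CPM in non-LRCs of experiments 1, 2 and 3. Every LRC library was above every non-LRC library, and the LRC library of experiment 2 was the highest. The means were 196 ± 107 and 39.8 ± 18.6 CPM (mean ± s.d., *n*=3), a 4.79-fold difference (log2 fold change 2.26, SE 0.18, 95% interval 1.82 to 2.70, adjusted p=0.0151). *Sod3* lies at chr5:52363791-52371418 (GRCm38), and no 50-base window of its transcripts was shared with those of another gene.

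Markers of superficial articular and synovial cells were also higher in LRCs, with 5 of 6 called higher (0.874% of all genes). Their sum was 3145, 1480 and 3036 CPM in LRCs of experiments 1, 2 and 3, against 128 to 202 CPM in non-LRCs. Among LRCs this sum was thus lowest in experiment 2, where *Sod3* was highest. Markers of resting chondrocytes (*Pthlh*, *Sfrp5*, *Gas1* and *Wif1*) were higher in LRCs as well, with 3 of 4 called higher (0.874% of all genes). The paper took *Gas1* and *Wif1* as new markers from the same RNA comparison, so that their calls here are not independent of it. It located *Gas1* in the resting zone with a reporter. The 4 markers summed to 1247, 1662 and 1222 CPM in LRCs, against 321 to 453 CPM in non-LRCs. Among LRCs *Wif1* and *Pthlh* were highest in experiment 2, and *Gas1* and *Sfrp5* were lowest there. The part of either marker list in the *Sod3* difference was not tested.

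The intracellular dismutases and catalase showed no call. Cytosolic *Sod1* was at 9.80, 40.8 and 12.7 CPM in LRCs and at 14.9, 29.7 and 13.9 CPM in non-LRCs, with a sign that differed between experiments (log2 fold change −0.09, adjusted p=0.885). Mitochondrial *Sod2* had a log2 fold change of −0.16 (adjusted p=0.721), which was −0.60 in experiment 1 and 0.22 in experiment 2. *Cat*, the catalase of peroxisomes, was at 42.5 ± 6.27 CPM in LRCs against 43.8 ± 4.999 CPM in non-LRCs, and the 95% interval of its log2 fold change was −0.45 to 0.36. The summed level of the group was 328 ± 148 CPM in LRCs against 176 ± 34.5 CPM in non-LRCs, of which *Sod3* made up 196 CPM and 39.8 CPM.

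The glutathione peroxidases were tested for 5 of 8 genes, and 1 was called, as lower (0.335% of all genes). *Gpx3*, the secreted enzyme of plasma and extracellular fluid, had the highest level per length of the 43 genes, at 594 CPM per kb of exon over all libraries, followed by *Prdx1* at 204 and *Txn1* at 188. It was at 1287, 1469 and 1188 CPM in LRCs and at 687, 1038 and 794 CPM in non-LRCs. The groups did not overlap, and the difference had the same sign in every experiment, but the gene missed both thresholds (1.58-fold, log2 fold change 0.66, SE 0.15, adjusted p=0.0990).

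*Gpx7* and *Gpx8* encode peroxidases of the endoplasmic reticulum that act beside the oxidase which forms disulphide bonds. *Gpx7* was at 35.05, 41.9 and 40.7 CPM in LRCs and at 76.5, 91.4 and 96.3 CPM in non-LRCs. The groups were far apart and the libraries of each group were close together. The gene was 2.24-fold lower in LRCs (39.2 ± 3.66 against 88.1 ± 10.3 CPM, log2 fold change −1.17, SE 0.15, adjusted p=0.0360). *Gpx8* was at 104, 182 and 138 CPM in LRCs and at 118, 267 and 208 CPM in non-LRCs, lower in LRCs of every experiment but with overlapping groups (log2 fold change −0.45, adjusted p=0.203).

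The other glutathione peroxidases were *Gpx1*, the abundant cytosolic enzyme, and *Gpx4*, which reduces lipid hydroperoxides. *Gpx1* was at 221, 485 and 202 CPM in LRCs and at 186, 303 and 169 CPM in non-LRCs, higher in LRCs of each experiment with overlapping groups (log2 fold change 0.39, adjusted p=0.255). *Gpx4* differed in sign between experiments (log2 fold change −0.16, 95% interval −0.62 to 0.31), and 34.7% of its 50-base windows were shared with other genes, chiefly *Gpx4-ps2*.

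**Figure D2:**
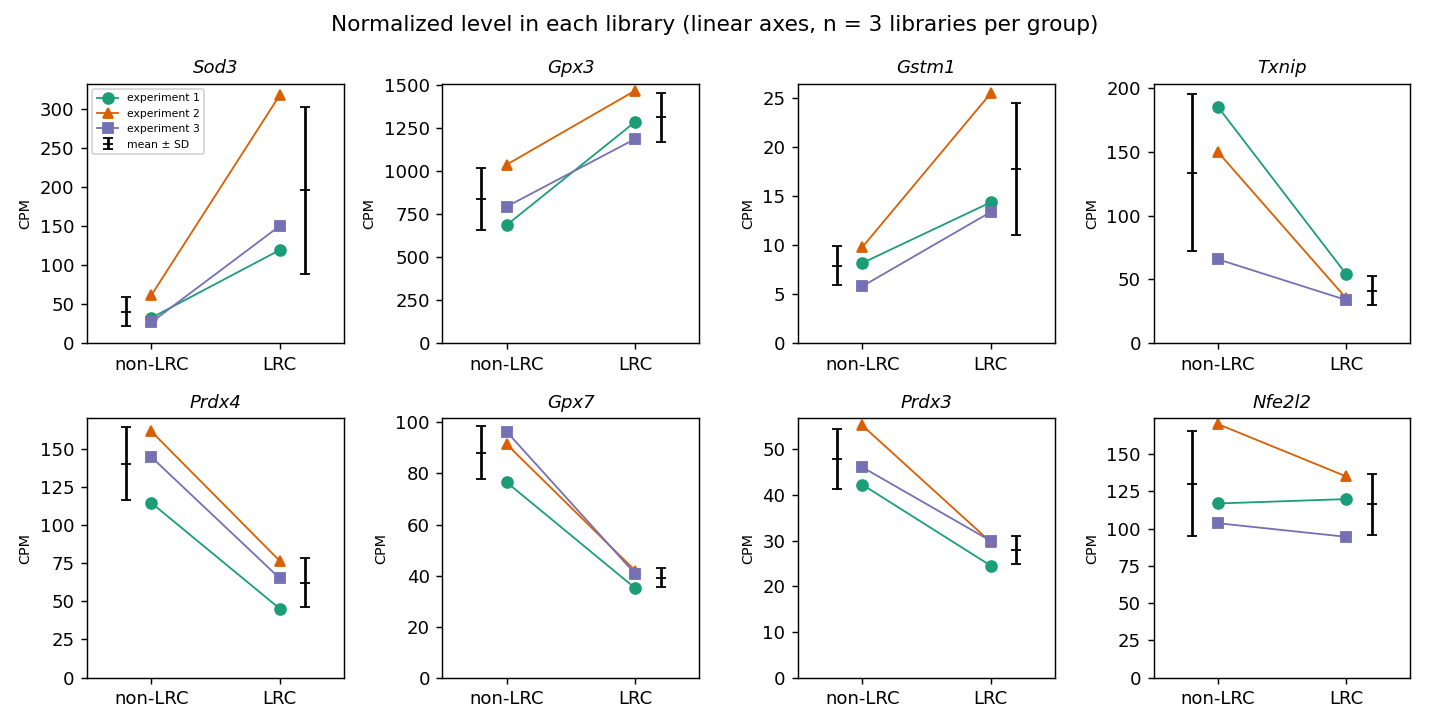
TMM-normalized CPM (*y* axes, linear, from 0) of 8 genes in non-LRC and LRC libraries; lines join the libraries of 1 experiment, and black bars are mean ± SD of 3 libraries. The *Sod3*, *Gpx3* and *Gstm1* lines go up and the *Txnip*, *Prdx4*, *Gpx7* and *Prdx3* lines go down in all 3 experiments without overlap of the groups, while the *Nfe2l2* lines differ in sign.

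All 6 peroxiredoxins were detected. All 6 fitted log2 fold changes were below 0, against 7690 of all 13728 genes, with a median of −0.54. *Prdx4* was called lower (0.335% of all genes). At an unadjusted p below 0.05, 5 of the 6 were lower (9.53% of all genes). The same 5 were lower in LRCs of all 3 experiments (26.1% of all genes), and 2 had groups that did not overlap (10.3% of all genes). Their summed level was 542, 1087 and 701 CPM in LRCs against 834, 1383 and 1232 CPM in non-LRCs, lower in LRCs of each experiment, with the LRC library of experiment 2 above the non-LRC library of experiment 1.

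*Prdx4* encodes the peroxiredoxin of the endoplasmic reticulum, which passes oxidizing equivalents from peroxide to folding proteins. It was at 45.2, 76.5 and 65.1 CPM in LRCs and at 115, 161 and 145 CPM in non-LRCs. The highest LRC library was below the lowest non-LRC library, and the difference was close to the same size in each experiment (−1.34, −1.08 and −1.15 on the log2 scale). The gene was 2.28-fold lower in LRCs (62.2 ± 15.8 against 140.1 ± 23.7 CPM, log2 fold change −1.19, SE 0.14, adjusted p=0.0330).

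*Prdx3*, the peroxiredoxin of the mitochondrial matrix, was at 24.5, 29.7 and 30.0 CPM in LRCs and at 42.3, 55.2 and 46.1 CPM in non-LRCs. Its groups did not overlap, but it was not called (log2 fold change −0.77, SE 0.18, adjusted p=0.0976). *Prdx1*, the most abundant peroxiredoxin and a cytosolic enzyme, was at 333, 731 and 444 CPM in LRCs and at 488, 905 and 821 CPM in non-LRCs (fitted log2 fold change −0.58, adjusted p=0.145). The cytosolic *Prdx2* and the mainly mitochondrial and peroxisomal *Prdx5* had log2 fold changes of −0.51 and −0.48 (adjusted p=0.182 and 0.255). *Prdx6*, which uses glutathione and not thioredoxin as its reductant, had a log2 fold change of −0.12 (95% interval −0.49 to 0.24).

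Grouped by compartment, a choice made after the values were seen and not tested, the 3 peroxidases of the endoplasmic reticulum (*Prdx4*, *Gpx7* and *Gpx8*) had log2 fold changes of −1.19, −1.17 and −0.45, and the secreted enzymes *Sod3* and *Gpx3* had 2.26 and 0.66. The mitochondrial matrix enzymes *Prdx3*, *Sod2*, *Txn2* and *Txnrd2* had a median of −0.41, but all except *Prdx3* differed in sign between experiments. *Prdx5* and *Gstk1*, found in both mitochondria and peroxisomes, were not placed in this group. Markers of hypertrophic chondrocytes were also lower in LRCs, with 2 of 5 called lower (0.335% of all genes). These markers summed to 171 to 435 CPM in LRCs against 652 to 1662 CPM in non-LRCs. Their part in the lower values was not tested.

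In the thioredoxin system 1 of 6 genes was called, as lower (0.335% of all genes). *Txnip* encodes an arrestin-like protein that binds and inhibits thioredoxin and restrains glucose uptake. It was at 53.9, 34.99 and 33.7 CPM in LRCs and at 185, 150.0 and 65.7 CPM in non-LRCs of experiments 1, 2 and 3. All LRC libraries were below all non-LRC libraries, although the lowest non-LRC library was much closer to the LRCs than the other two. The gene was 3.07-fold lower in LRCs (40.9 ± 11.3 against 134 ± 61.5 CPM, log2 fold change −1.62, SE 0.25, adjusted p=0.0489), and the difference was −1.78, −2.10 and −0.96 in the 3 experiments. Of its 50-base windows 15.7% were shared, chiefly with the antisense gene *Gm15441*, whose own log2 fold change was −1.57 with an SE of 1.75.

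The thioredoxins and their reductases carry the electrons. Cytosolic *Txn1* was at 87.1, 325 and 108 CPM in LRCs and at 185, 342 and 137 CPM in non-LRCs, lower in LRCs of each experiment with overlapping groups (log2 fold change −0.50, adjusted p=0.2998). *Txnrd1*, the cytosolic reductase, was at 364, 273 and 395 CPM in LRCs and at 294, 245 and 267 CPM in non-LRCs, the one gene of the system with a higher fitted level in LRCs (log2 fold change 0.34, 95% interval −0.02 to 0.70, adjusted p=0.289). The mitochondrial *Txn2* and *Txnrd2* had log2 fold changes of −0.32 and −0.50, and *Txnrd3* had −0.49, none of them called.

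The calls in this system and among the peroxidases depended on the pairing of libraries within experiments. Without the block 0 of the 43 genes were called by edgeR's quasi-likelihood test, against 1 of all 13728 genes. Adjusted p values were then 0.176 to 0.247 for *Sod3*, *Txnip*, *Prdx4* and *Gpx7*. An unadjusted p below 0.05 was seen for 8 of the 43 genes, against 1289 of all 13728. Without experiment 1 only *Sod3* was called, with adjusted p values of 0.147, 0.133 and 0.167 for *Gpx7*, *Prdx4* and *Txnip*. Without experiment 3 the adjusted p of *Gpx7* was 0.0722.

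Promoter sequences are shown for the 3 genes that were lower, with matches to 3 motifs in capitals. They span 250 bases before to 50 after the RefSeq start site, on GRCm38.p6 and 5′ to 3′ along the gene. RefSeq gave at least 1 such promoter for 49 of the 56 genes, and a gene was counted for a motif when any of its promoters held it. Matches were sought on both strands for the antioxidant response element core TGACNNNGC, the E-box CACGTG and the CCAAT box, and positions are counted from the start site to the first base of the match on the printed strand. *Txnip* (chr3:96557707-96558006, plus strand) held CCAAT boxes at −137 and −102. *Prdx4* (chrX:155338411-155338710, minus strand, inside the longer GENCODE gene) held a CCAAT box at −128 and an E-box at −52. *Gpx7* (chr4:108406664-108406963, minus strand) held no match.
Txnip: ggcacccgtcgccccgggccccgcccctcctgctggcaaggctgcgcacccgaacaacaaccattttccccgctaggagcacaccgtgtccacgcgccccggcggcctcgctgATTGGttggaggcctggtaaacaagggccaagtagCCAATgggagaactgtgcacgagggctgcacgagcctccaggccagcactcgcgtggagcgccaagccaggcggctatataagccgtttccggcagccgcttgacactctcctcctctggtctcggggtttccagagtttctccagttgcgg
Prdx4: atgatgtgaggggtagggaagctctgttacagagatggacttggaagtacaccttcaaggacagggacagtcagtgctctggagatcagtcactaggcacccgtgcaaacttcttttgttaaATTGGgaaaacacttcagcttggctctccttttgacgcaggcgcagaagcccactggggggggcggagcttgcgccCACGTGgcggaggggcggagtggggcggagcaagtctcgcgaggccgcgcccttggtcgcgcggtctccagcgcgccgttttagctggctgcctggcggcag
Gpx7: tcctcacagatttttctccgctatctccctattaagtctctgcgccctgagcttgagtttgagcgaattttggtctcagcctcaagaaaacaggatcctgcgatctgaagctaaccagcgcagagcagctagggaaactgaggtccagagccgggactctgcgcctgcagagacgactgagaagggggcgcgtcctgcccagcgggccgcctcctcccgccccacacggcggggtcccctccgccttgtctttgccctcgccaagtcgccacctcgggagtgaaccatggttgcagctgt
A CCAAT box was found for 27 of the 49 genes (55.1%), against 41.1% of the 27025 genes with a RefSeq promoter (37.4% of 32851 single promoters). An E-box was found for 2 of the 49 (4.08%), *Prdx4* and *Gpx6*, against 8.09% of genes (7.15% of single promoters). A match describes letters only and is not evidence of binding.

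Glutathione is made by glutamate-cysteine ligase, with catalytic (*Gclc*) and modifier (*Gclm*) subunits, and by glutathione synthetase (*Gss*), and it is regenerated by glutathione reductase (*Gsr*). None of the 4 was called by edgeR's quasi-likelihood test or DESeq2. At an unadjusted p below 0.05, 1 was lower (9.53% of all genes). *Gclc* was at 39.3, 23.8 and 48.8 CPM in LRCs and at 26.3, 21.3 and 34.1 CPM in non-LRCs, higher in LRCs of each experiment (log2 fold change 0.42, adjusted p=0.324). *Gclm* was at 29.1, 27.6 and 29.1 CPM in LRCs and at 26.4, 25.9 and 24.7 CPM in non-LRCs. The *Gclm* groups did not overlap, yet the difference was small beside its error (log2 fold change 0.16, 95% interval −0.31 to 0.62). *Gss* had a log2 fold change of 0.20 (adjusted p=0.584).

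*Gsr* was at 51.1, 85.7 and 65.7 CPM in LRCs and at 85.6, 115 and 90.4 CPM in non-LRCs. It was lower in LRCs of each experiment, and its highest LRC library lay just above its lowest non-LRC library (log2 fold change −0.54, SE 0.15, adjusted p=0.141). The summed level of the 4 genes was 211 ± 28.8 CPM in LRCs against 215 ± 24.4 CPM in non-LRCs.

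Nrf2, its inhibitor and its inducible enzymes gave no call and no unadjusted p below 0.05. *Nfe2l2* itself was at 119.8, 135 and 94.5 CPM in LRCs and at 117, 170.1 and 104 CPM in non-LRCs, with overlapping groups (log2 fold change −0.14, 95% interval −0.50 to 0.21, adjusted p=0.653). *Keap1* was at 29.7 ± 7.33 and 24.5 ± 5.02 CPM (log2 fold change 0.27, adjusted p=0.515). *Nqo1*, a quinone reductase, was at 10.6, 34.5 and 18.5 CPM in LRCs and at 20.8, 33.7 and 31.6 CPM in non-LRCs (fitted log2 fold change −0.57, adjusted p=0.323). *Hmox1*, which degrades haem, was lower in LRCs of experiment 1 (−0.71) and higher in experiments 2 (0.54) and 3 (0.70), with a fitted value of 0.18 (adjusted p=0.793).

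The antioxidant response element core was found in a promoter of 9 of the 49 genes (18.4%), against 14% of the 27025 genes with a RefSeq promoter (12.4% of single promoters). The 7 of these genes that were tested are shown to set the sequences beside the values, with the 9-base match in capitals and up to 16 bases on each side (GRCm38.p6, along the gene). No match printed here overlapped an E-box or CCAAT box.
Gclm: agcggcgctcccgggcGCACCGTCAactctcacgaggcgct
Gstm5: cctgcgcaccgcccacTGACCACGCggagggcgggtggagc
Mgst1: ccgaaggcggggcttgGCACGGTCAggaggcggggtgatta
Nfe2l2: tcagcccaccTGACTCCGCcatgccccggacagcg
Prdx1: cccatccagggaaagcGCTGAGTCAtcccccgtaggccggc
Sod1: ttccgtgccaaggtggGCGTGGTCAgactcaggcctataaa
Txnrd1: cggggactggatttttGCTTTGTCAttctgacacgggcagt
They lie at chr3:122245407-122245447 (+), chr3:107895796-107895836 (+), chr6:138140455-138140495 (+), chr2:75704879-75704913 (-), chr4:116685450-116685490 (+), chr16:90220690-90220730 (+) and chr10:82859098-82859138 (+), in that order, with the strand in brackets. The match reads in the direction of the gene in *Gstm5* and *Nfe2l2* and against it in the other 5. The log2 fold changes of these genes were 0.16 for *Gclm*, 0.10 for *Gstm5*, −1.04 for *Mgst1*, −0.14 for *Nfe2l2*, −0.58 for *Prdx1*, −0.09 for *Sod1* and 0.34 for *Txnrd1*. They thus fell on both sides of 0, and none was called. The other 2 genes with a match, *Gsta3* and *Gstm7*, were not tested.

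Cytosolic glutathione transferases, which join glutathione to electrophiles, were tested for 11 of 21 genes, and edgeR's quasi-likelihood test called 0. At an unadjusted p below 0.05, 1 was higher (8.89% of all genes) and 2 lower (9.53%). DESeq2 called 1 higher (3.07% of all genes) and 1 lower (2.72%). By limma-voom 2 were called, against 621 of all 13728 genes. By class, 3 of 7 mu genes, both pi, both omega, 2 of 4 theta genes and the single kappa and zeta genes were tested, and 0 of 4 alpha genes. The 3 mu genes were all higher in LRCs by fitted sign, against 6038 of all 13728 genes. *Gstm1* was at 14.4, 25.5 and 13.4 CPM in LRCs and at 8.15, 9.77 and 5.77 CPM in non-LRCs, so that the groups did not overlap (log2 fold change 1.14, SE 0.28, adjusted p=0.114 by edgeR and 0.00544 by DESeq2). *Gstm1* shared 18.9% of its 50-base windows, chiefly with the pseudogene *Gstm2-ps1*.

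*Gstm4* and *Gstm5* had log2 fold changes of 0.84 and 0.10 (adjusted p=0.372 and 0.848). *Gstp1*, the transferase of the pi class, was at 22.0, 48.9 and 23.7 CPM in LRCs and at 46.8, 67.9 and 42.6 CPM in non-LRCs, lower in LRCs of each experiment with groups that overlapped (log2 fold change −0.80, SE 0.20, adjusted p=0.114). Of the *Gstp1* windows 33.7% were shared with other genes, chiefly the neighbouring *Gstp2*, which was at most 0.669 CPM in any library. The level of *Gstp2* is itself uncertain, as 54.3% of its own windows were shared. *Gstk1*, the mitochondrial and peroxisomal kappa transferase, was at 3.33, 2.63 and 7.96 CPM in LRCs and at 9.60, 24.7 and 11.9 CPM in non-LRCs. Its groups did not overlap, but the difference ranged from −0.58 to −3.22 between experiments (log2 fold change −1.75, SE 0.56, adjusted p=0.185 by edgeR and 0.0161 by DESeq2).

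None of the remaining transferases was called. *Gsto1*, *Gstt2* and *Gstt3* differed in sign between experiments, and *Gstz1* was lower in LRCs of each experiment with groups that overlapped. *Gsto1*, *Gstt2*, *Gstt3* and *Gstz1* had log2 fold changes of 0.25, 0.47, 0.25 and −0.38, with adjusted p values of 0.396 to 0.778. *Gsto2* had the lowest level per length of the 43 genes (0.139 CPM per kb of exon), with 0 counts in the LRC library of experiment 2, and its fitted value of 1.71 had an SE of 3.09. The microsomal transferases *Mgst1*, *Mgst2* and *Mgst3* were at most 6.40 CPM in any library, with log2 fold changes of −1.04, −0.56 and −0.59 and SE of 0.66 to 0.85.

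The 13 genes that were not tested were *Gpx2*, *Gpx5*, *Gpx6*, *Gsta1*, *Gsta2*, *Gsta3*, *Gsta4*, *Gstm2*, *Gstm3*, *Gstm6*, *Gstm7*, *Gstt1* and *Gstt4*. *Gpx2*, *Gpx5*, *Gpx6* and *Gsta2* had 0 counts in every library, which allows at most 0.0257 CPM in the deepest library (3 counts). The highest count of the set was 12, for *Gstm2* in the non-LRC library of experiment 1.

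**Figure D3:**
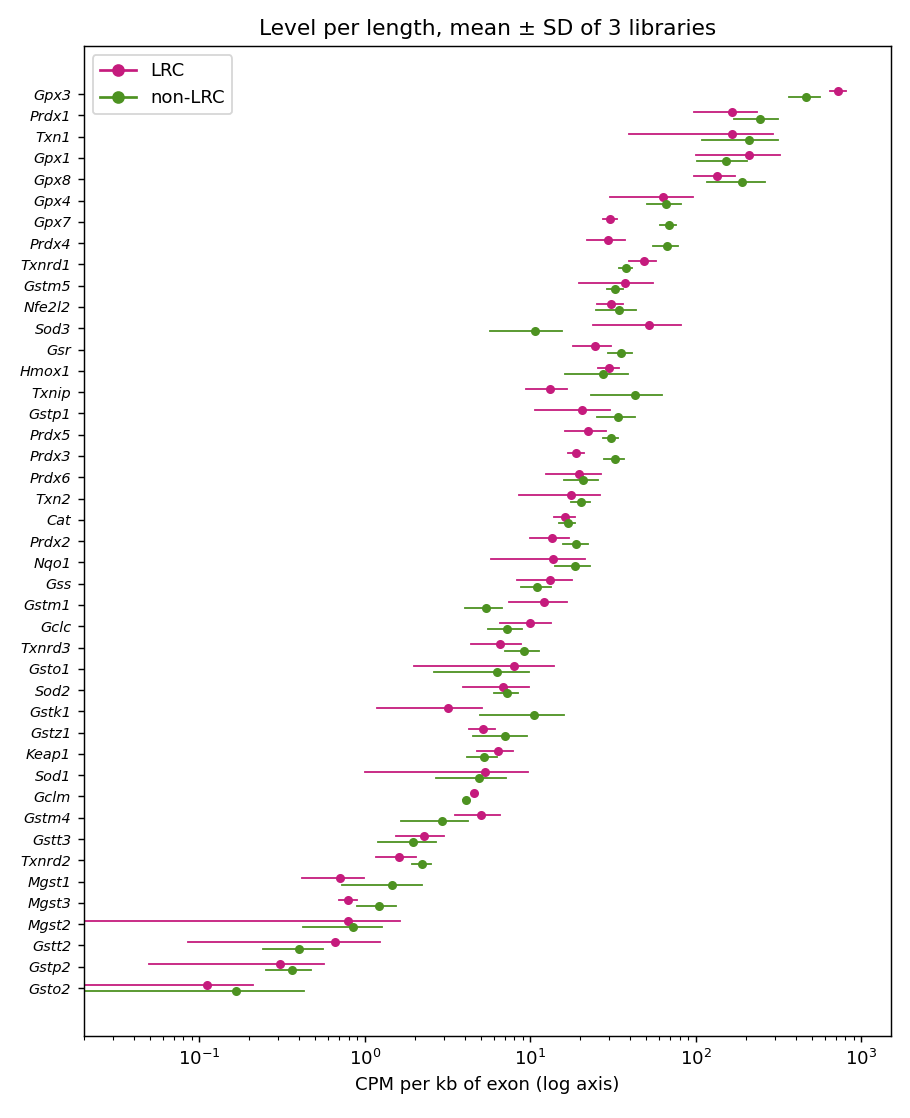
CPM per kb of exon (*x* axis, log scale) of the 43 tested genes, ordered by the mean over all libraries; points are means and bars SD of 3 LRC (magenta) or 3 non-LRC (green) libraries, and bars that reach the left edge go below the axis range. Levels run from 594 for *Gpx3* to 0.139 for *Gsto2*, and the groups are widest apart for *Sod3*, *Txnip*, *Gstk1*, *Prdx4*, *Gpx7* and *Gstm1* among genes with a mean above 5.

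The wider redox network was read from 7 lists of other genes, which hold 84 genes of the table, 73 of them tested. edgeR's quasi-likelihood test called 0, against 166 of all 13728 genes. At an unadjusted p below 0.05, 10 were higher (8.89% of all genes) and 14 lower (9.53%). DESeq2 called 3 higher (3.07% of all genes) and 4 lower (2.72%). By limma-voom 4 were called, against 621 of all 13728 genes. The median log2 fold change was −0.16. The nearest to a call was *Sep15*, a selenoprotein of the endoplasmic reticulum linked to glycoprotein folding, at 265, 382 and 369 CPM in LRCs and at 495, 717 and 653 CPM in non-LRCs. Its groups did not overlap and its adjusted p passed the threshold, but its change was under 2-fold (log2 fold change −0.88, SE 0.13, adjusted p=0.0489).

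Of the NADPH-producing enzymes, 4 of 9 were lower at an unadjusted p below 0.05 (9.53% of all genes) and none higher (8.89% of all genes). *Idh2*, the NADP-dependent isocitrate dehydrogenase of mitochondria, was at 32.4, 21.4 and 49.0 CPM in LRCs and at 58.3, 58.6 and 88.0 CPM in non-LRCs, without overlap (log2 fold change −1.04, SE 0.20, adjusted p=0.0700). Of Nrf2 partners and further Nrf2 targets, 4 of 16 were higher at an unadjusted p below 0.05 (8.89% of all genes) and 2 lower (9.53%). *Ephx1*, an epoxide hydrolase, was at 57.3, 83.2 and 54.6 CPM in LRCs and at 17.7, 41.6 and 25.4 CPM in non-LRCs, without overlap (log2 fold change 1.27, SE 0.21, adjusted p=0.0540).

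*Srxn1* encodes sulfiredoxin, which repairs over-oxidized peroxiredoxins. It was at 1677, 1082 and 1496 CPM in LRCs and at 903, 569 and 1084 CPM in non-LRCs, higher in LRCs of each experiment, with groups that overlapped (log2 fold change 0.76, SE 0.16, adjusted p=0.0835). *Park7*, a redox-sensitive chaperone, had a log2 fold change of −0.68 (adjusted p=0.0937), and the glutathione-conjugate exporter *Abcc1* had 0.67 (adjusted p=0.120). *Xdh*, xanthine dehydrogenase, was at 1.14 to 7.07 CPM in LRCs against 0.0262 to 0.322 CPM in non-LRCs, and was called by DESeq2 (adjusted p=0.0018) but not by edgeR's quasi-likelihood test (log2 fold change 4.48, SE 1.47, adjusted p=0.191).

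**Figure D4:**
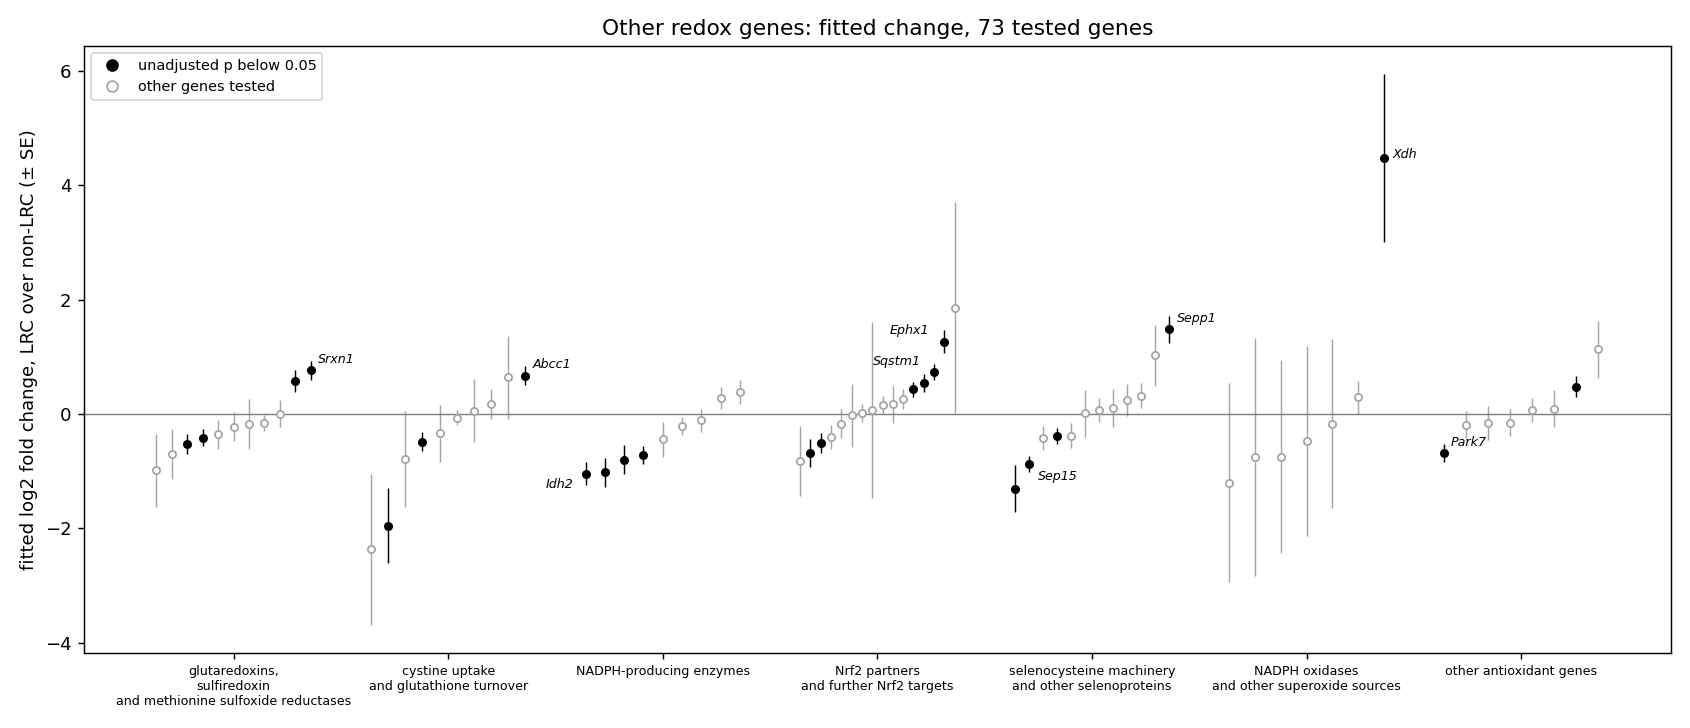
Fitted log2 fold change ± SE, LRC over non-LRC (*y* axis), of 73 other redox genes in 7 lists (*x* axis); filled points had an unadjusted p below 0.05. None of the 73 was called, and the filled points of the NADPH-producing enzymes all lie below 0 while *Ephx1* and *Srxn1* lie at 1.27 and 0.76.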

How the data were processed

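RNA of 6 libraries (3 LRC, 3 non-LRC; groups and experiment numbers from the sample labels) was amplified from sorted cells and sequenced as 50-cycle single-end reads. The authors aligned reads to mm10 (TopHat2 2.0.13 and Bowtie2 2.2.1 per the labels) and counted non-ambiguous reads per gene with HTSeq. The annotation and strand setting are not given in the sources used here, so overlapping and near-identical genes are uncertain. The deposited raw counts, whole numbers of reads per gene, were the input of every value; the deposited normalized and rlog tables were not used. All columns were mapped to a sample. The chi-square per gene between libraries of a group was 162 to 497, far above sampling noise, and each library was counted once.

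The tests were run with edgeR 4.0.16 in R 4.3.3: filterByExpr by group (minimum count 10, minimum total 15; 13728 genes), TMM, experiment as a block, quasi-likelihood test (prior count 0.125) and Benjamini-Hochberg adjustment. The study's methods state a paired model. Deviations from group means correlated within experiments (Pearson r=0.197, 0.288 and 0.336 across genes), against −0.274 to 0.128 for other pairs. Log2 differences within an experiment used a prior count of 2. Alternatives used DESeq2 1.42.0, limma 3.58.1 (voom), other filters and scaling, no block, and each experiment left out; the filter by design matrix was added after the data were seen.

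Coordinates, exon lengths and shared 50-base windows came from GENCODE vM21 (GRCm38; all 56 genes matched by symbol) and promoters from RefSeq. Promoters of *Sod3*, *Gclc*, *Gsr*, *Hmox1*, *Prdx6*, *Gsta4* and *Gstt2* were not analysed here. Genes and lists were chosen with earlier results of these data known. Named genes were those with an unadjusted p below 0.05, the most abundant and most changed of each role group, the 10 genes chosen by name, and in each list of other redox genes any with adjusted p below 0.05 and the smallest p. The text adds the remaining tested genes by value, and *Gm15441*. Intervals cover the spread between libraries that remains after the experiment block is fitted, from 3 experiments. Limits from 3 counts cover counting error only.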

Additional observations from a re-analysis of the deposited data

How the results depend on the processing

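Of the 13728 genes tested, 166 were called. Without the replicate block 1 was called, and 800 by DESeq2, 621 by limma-voom and 434 with at least 10 counts in every library; leaving out experiments gave 35 to 555. *Gpx7*, *Prdx4*, *Sod3* and *Txnip* were called under DESeq2, limma-voom, DESeq2 size factors in edgeR, both count filters, a prior count of 2 and the added filter by design matrix, but 0 of the 43 were called without the replicate block, and 1 to 4 with an experiment left out (only *Sod3* without experiment 1; *Prdx4*, *Sod3* and *Txnip* without experiment 3). Of the other redox genes 7 were called by DESeq2, 4 by limma-voom, 3 with at least 10 counts in every library, 2 with no filter and 0 to 4 with an experiment left out, against 0. Directions turned only for genes that were not called: *Gsto2* was −0.50 without the replicate block and −1.46 to 3.78 with an experiment left out, *Sod2* −0.35 to 0.059, *Gstm5* −0.18 to 0.30 and *Hmox1* −0.067 to 0.61. The cause of these changes was not tested. No named gene changed direction under DESeq2 size factors, and the median of all genes was −0.14 to −0.02 over the settings. In the smallest library, of 18943789 counts, 3 counts were worth 0.143 CPM, so that differences in genes near that level were not detectable.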
